A study of Aspergillus glaucus with 6 samples.

Results

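The genes described here are the abundant transcripts whose share of reads differed by less than 2-fold between salt conditions and culture times in Aspergillus glaucus CCHA, a filamentous fungus that tolerates salt. They were chosen by their measured levels in CPM (the reads of a gene over all reads counted in its library, times 1000000): at least 800 CPM in all 6 libraries and a highest CPM under 2 times the lowest. The rule gave 24 genes, of 8441 gene IDs with a read in any library. The study sequenced RNA from mycelium in medium with added sodium chloride (NaCl). All 6 libraries come from the same strain, CCHA, and they differ in salt and in length of treatment. Sampling after 36 h covered 1 M and 3 M NaCl. Sampling after 84 h covered 1 M, 3 M and 4 M NaCl and a culture without added salt (0 M). Each condition has 1 library, so no spread between cultures is known, no p-value was computed, and every difference below is between libraries. Because the same values chose the genes, all that follows describes them and tests nothing.

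In fungi, as in other eukaryotes, the transcripts that take the most reads in growing hyphae commonly encode parts of the translation machinery, histones, enzymes of glycolysis, carriers of the mitochondrial membrane, cytoskeletal proteins and chaperones. Genes with steady transcript levels serve as references when other genes are measured by quantitative PCR. Salt is a demanding test of such references, because a fungus in concentrated NaCl reshapes its growth, its stores of glycerol and other solutes, and its ion transport. A CPM value is a share of the RNA of a culture, so a steady share does not show a steady number of transcripts per cell. In bulk RNA, fewer cells of a type and less RNA per cell cannot be told apart.

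The files give IDs without gene names. Of all 8441 IDs, the 24 among them, 0 matched a RefSeq table of 11428 genes of another strain (assembly Aspgl1). No sequence could be tied to the 24, so the genes are described by ID, by level and by pattern. The files also give no transcript lengths. A longer transcript collects more reads, so levels are compared here within a gene across libraries and not between genes. Markers of spores or fruiting bodies could not be identified, and the mix of cell types in the cultures was not assessed.

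Library totals ran from 16371771 to 18376857 counts. At this depth 800 CPM corresponds to between 13097 and 14701 counts, and the members' own counts ran from 14757 to 372413. Counting error alone would give a member a coefficient of variation (SD over mean) of 0.183% to 0.754%, while the 6 values of a member varied by 8.20% to 28.3%, with a median of 19.7%. In all 24 members the SD over the libraries was at least 16.6 times the counting SD. The differences within the set are thus larger than counting error, but how much cultures in the same condition differ is unknown.

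Of 377 genes that reached 800 CPM in at least 1 library, 77 did so in all 6, and 24 of these 77 (31.2%) met the limit on the ratio. Among all 6238 genes with a mean of at least 10 CPM the share was the same, 1948 genes or 31.2%. The other 53 had a median highest-to-lowest ratio of 2.57. In 41 of them the ratio was under 3, in 9 it lay from 3 to under 4, and in 3 it was 4 or more. AG08045.1 varied most among the 77, from 1255 CPM in 1 M at 84 h to 15034 CPM in 4 M at 84 h, a ratio of 11.98. AG05906.1 (7.40), AG06628.1 (6.20) and AG00856.1 (3.97) followed. The share of genes with a ratio under 2 was lowest at both ends of the range of mean CPM. It was 23.6% of 2549 genes with a mean of 10 to 50 CPM, 36.0% of 2655 genes from 50 to 200 CPM, 42.6% of 823 genes from 200 to 800 CPM and 18.5% of 211 genes at 800 CPM or more.

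**Figure D1:**
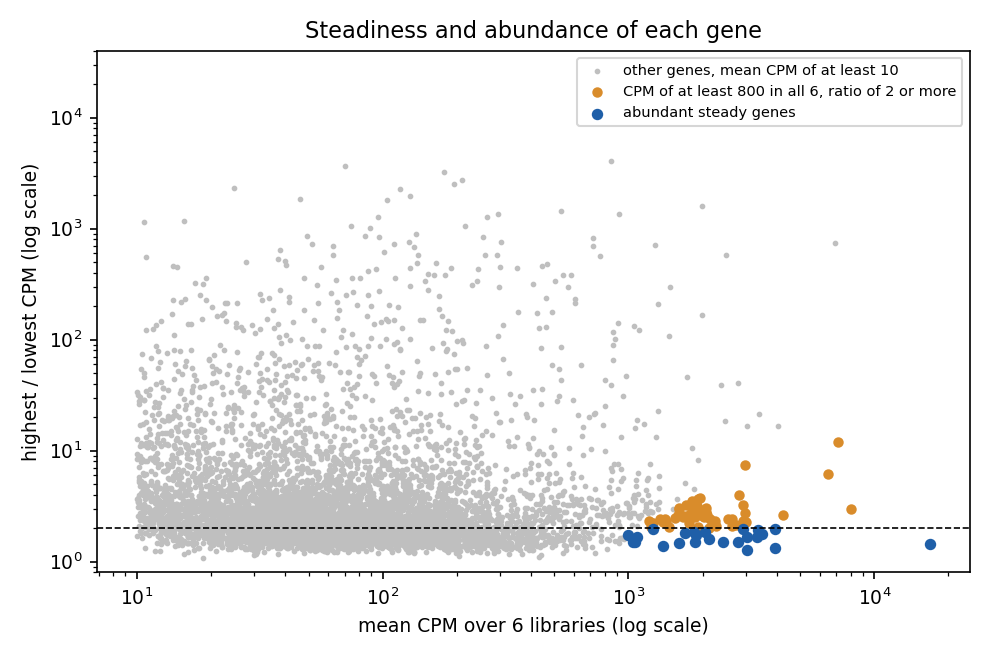
Each point is a gene with a read in all 6 libraries and a mean of at least 10 CPM. The x axis is the mean CPM and the y axis the highest CPM divided by the lowest, both on log scales, and the dashed line marks a ratio of 2. Blue points are the 24 abundant steady genes and orange points the 53 genes at 800 CPM or more in all 6 libraries with a ratio of 2 or more, most of which lie under a ratio of 3.

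No gap separates the members from their neighbours. Just under the ratio limit were AG00734.1 (1.964), AG07141.1 (1.960) and AG04958.1 (1.956), and just over it AG07853.1 (2.031), AG01527.1 (2.048) and AG08390.1 (2.049). The members nearest to the CPM limit had lowest values of 809 CPM (AG05703.1), 841 CPM (AG01547.1) and 862 CPM (AG00734.1). The nearest steady genes below it had lowest values of 790.2 CPM (AG07264.1), 789.9 CPM (AG03964.1) and 757 CPM (AG04751.1). A further 29 genes had a ratio under 2 and reached 800 CPM in some libraries but not in all.

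AG06730.1 held the most reads of all genes in each of the 6 libraries. At 36 h its levels were 16078 CPM (1 M) and 20766 CPM (3 M). At 84 h they were 14359, 16050, 15320 and 18542 CPM, in order of rising salt. It was highest in 3 M at 36 h and next in 4 M at 84 h, and the library without added salt was the lowest, at a ratio of 1.45. Its own reads weigh on the members' sum, so their share of each library is also given without it. All 24 together took 6.11% of counts in 0 M at 84 h (exact 95% interval 6.09% to 6.12%, counting error only) and 8.10% in 3 M at 36 h (8.09% to 8.11%). The other libraries lay between. The 1 M culture had 6.77% at 36 h and 6.38% at 84 h, and 3 M and 4 M had 6.70% and 7.37% at 84 h. Without AG06730.1 the range was 4.67% to 6.02%, with the same libraries at the ends. The 53 other abundant genes ranged more widely, from 9.25% in 1 M at 84 h to 17.2% in 3 M at 36 h. The rule left them out for a ratio of 2 or more, which favours a wider range, so this is not read as a result. Between 16 and 19 of the 24 members were among the 100 genes with the most reads in any library.

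**Figure D2:**
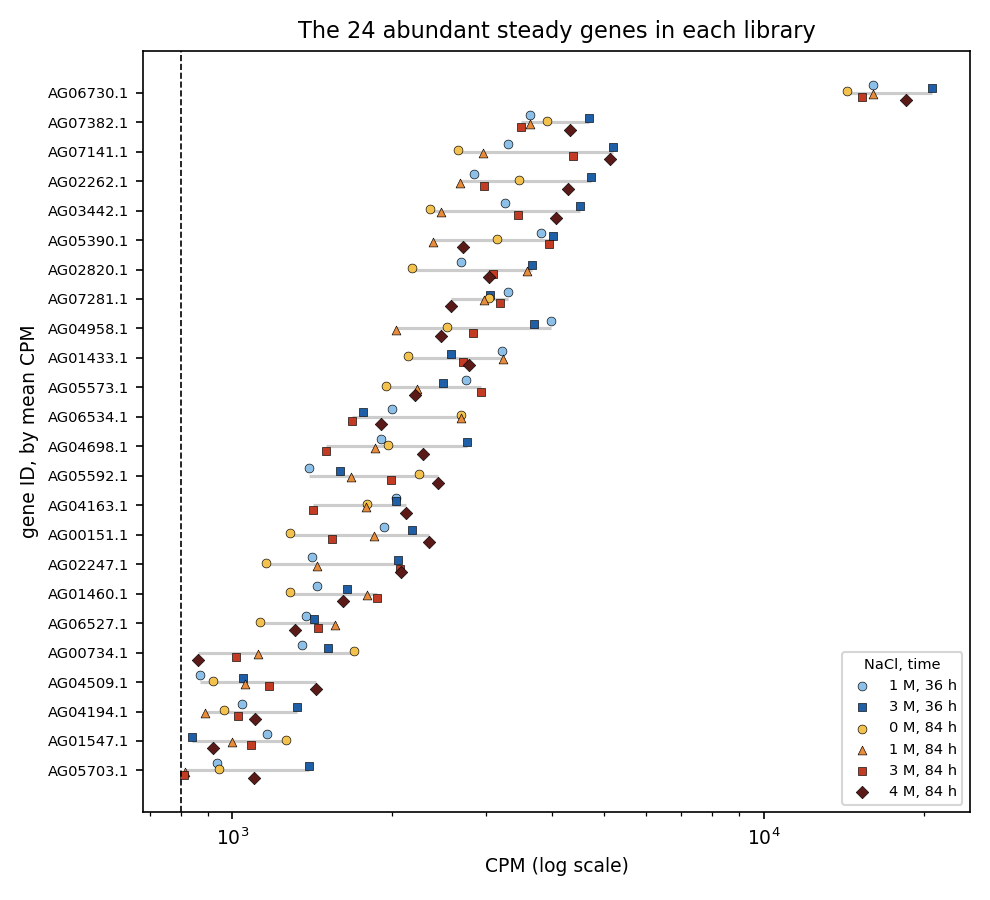
Each row is one of the 24 genes, ordered by mean CPM, and each symbol its CPM in a library (log x axis). Grey lines join the lowest and the highest value and the dashed line marks 800 CPM. AG06730.1 stands apart at 14359 to 20766 CPM, while the other 23 genes lie between 809 and 5209 CPM.

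In 8 members the ratio stayed under 1.5, in 6 it lay from 1.5 to under 1.7, and in 10 it was 1.7 or more. AG07281.1 was the steadiest by this measure, at a ratio of 1.28. In the paired values for 36 h given from here on, 1 M comes before 3 M, and the values for 84 h follow rising salt from 0 M to 4 M unless said otherwise. This gene stood at 3302 and 3056 CPM at 36 h and at 3042, 2972, 3192 and 2579 CPM at 84 h, and the 4 M library lay apart below the other 5. AG07382.1 followed at 1.34, with 3640 and 4682 CPM at 36 h and 3906, 3639, 3495 and 4329 CPM at 84 h. It was high in the same libraries as AG06730.1, namely 3 M at 36 h and 4 M at 84 h. AG06527.1 had a ratio of 1.38, with 1374 and 1426 CPM at 36 h and 1129, 1560, 1452 and 1312 CPM at 84 h. Its lowest library was the one without added salt and its highest 1 M at 84 h.

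The other members under a ratio of 1.5 differed in where they peaked. AG01460.1 (1.46) stood at 1442 and 1641 CPM at 36 h and at 1282, 1790, 1872 and 1615 CPM at 84 h, lowest without added salt. AG04194.1 (1.49) stood at 1045 and 1326 CPM at 36 h and at 967, 889, 1024 and 1103 CPM at 84 h, highest in 3 M at 36 h. AG04163.1 (1.49) kept to 2033 CPM in both libraries at 36 h and to 1796, 1783, 1420 and 2118 CPM at 84 h, where the 3 M library lay apart below the rest. AG01547.1 (1.498) ran the other way, with 1165 and 841 CPM at 36 h and 1259, 998, 1083 and 918 CPM at 84 h. It was highest without added salt and lowest in 3 M at 36 h. Its ratio was 1.29 with TMM scaling (trimmed mean of M values, which sets libraries to each other by the bulk of genes in place of the total count), the smallest of any member on that scale.

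Across the set, 10 of 24 members had their highest CPM in 3 M at 36 h and 5 in 4 M at 84 h. The library without added salt was the lowest for 10 members and the highest for 2. The same shares over all genes were not computed, so these counts are not read as a trait of the members. The 53 other abundant genes also peaked most often in 3 M at 36 h (35 of 53), but their lowest library was most often 3 M at 84 h (24) or 1 M at 84 h (14), and seldom 0 M (5).

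**Figure D3:**
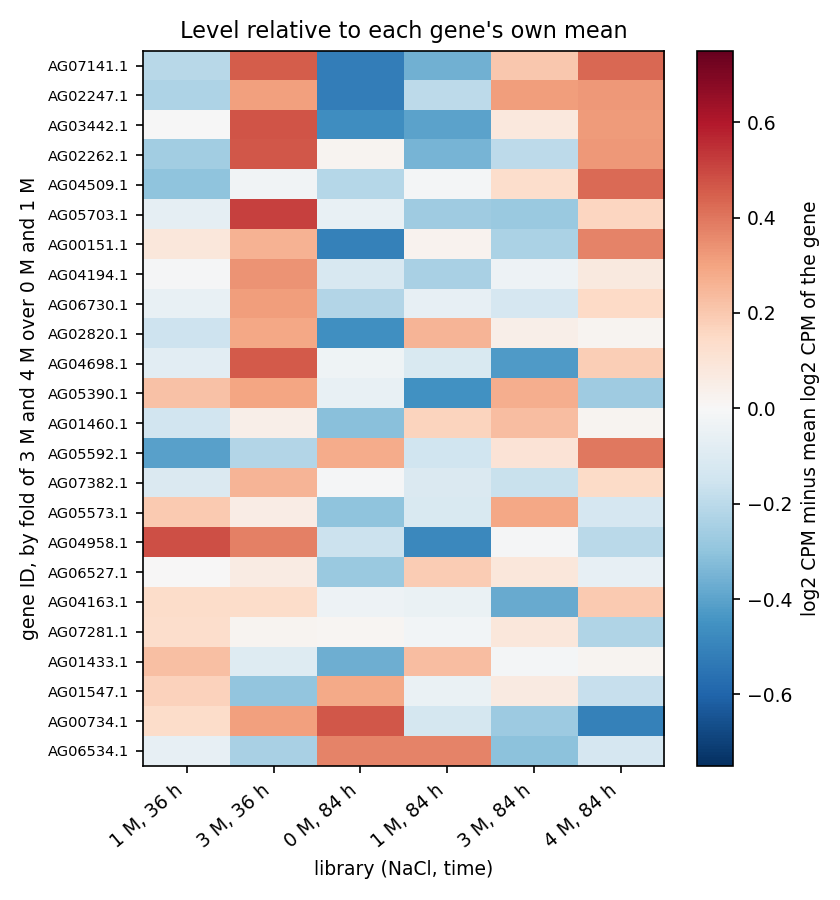
Colours give the log2 CPM of each member in each library minus the gene's own mean log2 CPM, with genes ordered by the fold of the mean of the 3 M and 4 M libraries over that of the 0 M and 1 M libraries. The 3 M library at 36 h is red in most rows and the 0 M library at 84 h blue in most. Near the bottom, AG06534.1 and AG01547.1 run the other way in both libraries, while AG00734.1, between them, is above its own mean in both.

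At 84 h each salt level was set against the culture without added salt. Each of these comparisons uses the same 0 M library, so its deviations enter all 3. A gene was counted at 1.5-fold or more, on log2 values with 2 counts added, beside all genes with at least 10 CPM in either library. The rule that chose the members bars any change of 2-fold, and their counts are therefore shown beside the background without being read against it. In 1 M, 2 members were at least 1.5-fold higher (background 18.1%) and 1 was lower (28.1%). With TMM scaling the counts were 4 and 0 (background 21.1% and 23.9%), and with DESeq2 size factors 5 and 0 (22.9% and 21.9%). AG02820.1 differed most, from 2181 CPM in 0 M to 3583 CPM in 1 M, which is 1.64-fold higher (exact 95% counting interval 1.62 to 1.66). Its other levels were 2689 and 3661 CPM at 36 h and 3096 and 3047 CPM with more salt at 84 h, so the 0 M library was below all the rest. AG01433.1 showed a like picture, with 2138 CPM in 0 M against 3227 CPM in 1 M (1.51-fold, 1.49 to 1.53). Its other libraries stood at 3218 and 2577 CPM at 36 h and at 2723 and 2787 CPM with more salt at 84 h, again with 0 M lowest.

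In 3 M at 84 h, 3 members were at least 1.5-fold higher than in 0 M (background 17.4%) and 2 were lower (19.7%). AG05573.1 measured 1949 CPM without salt and 2938 CPM with 3 M (1.51-fold higher, 1.49 to 1.53). Its level was 2225 CPM with 1 M, 2203 CPM with 4 M, and 2757 and 2496 CPM at 36 h. The 3 M library at 84 h was thus its highest and 4 M lay close to 1 M. AG06534.1 had the opposite pattern at 84 h, at 2692 and 2695 CPM in 0 M and 1 M against 1679 and 1905 CPM in 3 M and 4 M. Its pair at 36 h was 1994 and 1760 CPM. In 3 M at 84 h it was 1.60-fold lower than in 0 M (1.58 to 1.63), and all 3 libraries in 3 M or 4 M lay below all 3 in 0 M or 1 M.

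In 4 M at 84 h, 5 members were at least 1.5-fold higher than in 0 M (background 22.3%) and 1 was lower (28.2%). AG07141.1 differed most, with 2658, 2970, 4385 and 5134 CPM, which is 1.93-fold from end to end (1.91 to 1.95). Its pair at 36 h was 3301 and 5209 CPM, so it was higher in more salt at each time. AG03442.1 followed the same order, with 2360, 2470, 3447 and 4064 CPM at 84 h and 3258 and 4517 CPM at 36 h (4 M over 0 M 1.72-fold, 1.701 to 1.744). AG02247.1 stood at 1158, 1446, 2064 and 2079 CPM at 84 h and at 1412 and 2054 CPM at 36 h (1.80-fold, 1.76 to 1.83). Its 3 libraries in 3 M or 4 M lay close together, and its largest step at 84 h was that between 1 M and 3 M. AG04509.1 also stood higher at each step, at 921, 1058, 1173 and 1435 CPM (1.56-fold, 1.53 to 1.59), with 869 and 1049 CPM at 36 h. AG00151.1 was higher in 4 M without such an order, at 1282, 1849, 1540 and 2350 CPM (1.83-fold, 1.80 to 1.86), and at 1931 and 2182 CPM at 36 h.

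Of the 24, AG00734.1 alone was at least 1.5-fold lower in each of the 3 comparisons with 0 M. It stood at 1694, 1117, 1014 and 862 CPM at 84 h, lower at each step, and 4 M was 1.96-fold below 0 M (1.93 to 2.003). Its pair at 36 h was 1351 and 1515 CPM, where more salt went with a slightly higher level. In 1 M against 0 M it no longer reached 1.5-fold with TMM or DESeq2 scaling. In all, 4 members (16.7%) stood higher at each salt step at 84 h, beside 4.90% of 6680 genes at 10 CPM or more, and 1 member (4.17%) stood lower at each step, beside 5.91%. With DESeq2 size factors these counts were 5 and 2, beside 5.95% and 5.05% of all genes. Among the 53 other abundant genes, by total counts, 2 stood higher and 1 lower at each step.

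The members' medians were above those of all genes in each of these comparisons, which is a description only, since the rule bounds each member's change. Their median log2 fold change was -0.0045 in 1 M, 0.13 in 3 M and 0.22 in 4 M, beside -0.14, -0.02 and 0.02 over all genes compared. Between 15 and 18 of the 24 members were above the all-gene median in each. The 53 other abundant genes had medians of -0.31 in 1 M, -0.32 in 3 M and 0.45 in 4 M. Of these 53, 15, 17 and 43 were above the all-gene median. The median in 1 M turned positive with TMM scaling, at 0.10, a scaling that shifted the all-gene median by 0.11 in the same comparison. A scaling factor of a library moves both medians alike, so the difference between them hardly depends on the scaling by construction. This difference, members minus all genes, was 0.14 in 1 M, 0.14 in 3 M and 0.20 in 4 M. The split of all genes past 1.5-fold in 1 M was 1168 higher and 1810 lower, and 1469 and 1403 with DESeq2 size factors.

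**Figure D4:**
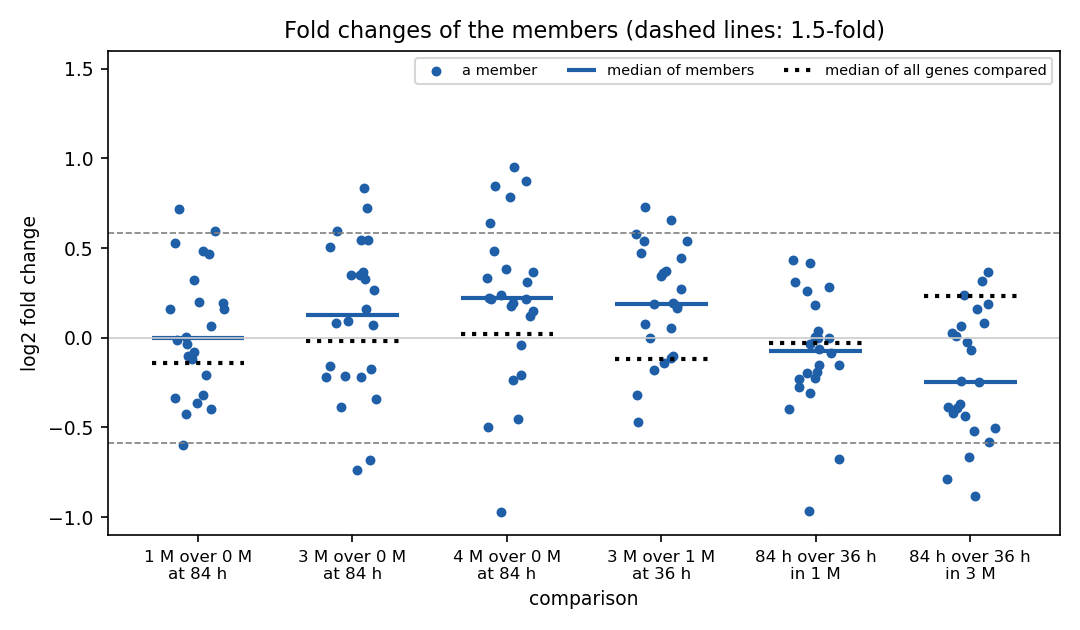
Each point is a member's log2 fold change in a comparison named on the x axis. Blue bars are the members' medians, dotted bars the medians of all genes compared, and dashed lines mark 1.5-fold in either direction. The largest gap between the medians is in 84 h over 36 h in 3 M NaCl, where the members' median is -0.25 and that of all genes 0.23. The 53 other abundant genes, not drawn, had a median of -1.18 in this comparison.

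At 36 h the 3 M culture was set against 1 M, as no library without salt was analysed at that time. In 3 M, 2 members were at least 1.5-fold higher (background 20.1%) and 0 were lower (31.0%). AG02262.1 differed most, with 2852 against 4726 CPM (1.66-fold, 1.64 to 1.68). At 84 h it stood at 3463, 2686, 2980 and 4289 CPM, so only the 4 M library came near its level in 3 M at 36 h. AG07141.1, described above, was 1.58-fold higher (1.56 to 1.59). AG01547.1 had the lowest fold change, 1.38-fold below 1 M (1.36 to 1.41). These counts depended on the scaling. Under TMM scaling 7 members were at least 1.5-fold higher (background 25.8%), and 7 with DESeq2 size factors (27.0%). The all-gene median shifted by 0.18 (log2) under TMM scaling, which changed the split of all genes past 1.5-fold from 1270 higher and 1956 lower to 1637 and 1646. Relative to the median of all genes the members' median was 0.31 higher on the log2 scale, and 20 of 24 members were above it. Of the 53 other abundant genes, 37 were at least 1.5-fold higher in 3 M and 2 lower.

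Culture time was compared within each salt. In 1 M, 0 members stood 1.5-fold or more above their level at 36 h after 84 h (background 20.6%) and 2 were lower (22.8%). AG04958.1 differed most, from 3974 to 2032 CPM, 1.96-fold lower (1.93 to 1.98). In 3 M it went from 3697 to 2832 CPM, and it had 2539 CPM without salt and 2469 CPM with 4 M at 84 h, so both libraries at 36 h lay above all 4 at 84 h. AG05390.1 went from 3805 to 2385 CPM in 1 M (1.60-fold lower, 1.58 to 1.62), but from 4012 to 3949 CPM in 3 M. Its levels in 0 M and 4 M at 84 h were 3144 and 2718 CPM, between those of the 1 M and 3 M cultures. The highest fold in this comparison was that of AG06534.1, 1.35 (1.33 to 1.37).

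In 3 M, 0 members were 1.5-fold or more higher at the later time (background 35.9%) and 3 were lower (19.4%). AG04698.1 went from 2767 to 1500 CPM (1.85-fold lower, 1.82 to 1.87). Its other levels were 1901 CPM at 36 h and 1963, 1858 and 2287 CPM at 84 h. The pair in 3 M thus held both its highest and its lowest value. AG05703.1 went from 1397 to 809 CPM (1.73-fold lower, 1.69 to 1.76), and its other levels were 934 CPM at 36 h and 943, 815 and 1096 CPM at 84 h. AG02262.1 was 1.59-fold lower (1.57 to 1.60), and AG01547.1 had the highest fold, 1.29 (1.26 to 1.32). With TMM scaling 11 members were at least 1.5-fold lower (background 26.5%), and 11 with DESeq2 size factors (28.8%). The all-gene median shifted by -0.23 under TMM scaling, which changed the split of all genes past 1.5-fold from 2267 higher and 1224 lower to 1808 and 1674. Relative to the median of all genes, the members' median was -0.48, and 3 of 24 members were above the all-gene median. This was not particular to the members. The 53 other abundant genes had a median log2 fold change of -1.18, with 37 at least 1.5-fold lower, 5 higher and 7 above the all-gene median.

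The comparisons of time in 1 M and in 3 M share no library. Of the members, 13 (54.2%) were lower at 84 h than at 36 h in both salts, beside 28.8% of 6621 genes, and 6 were higher in both, beside 36.6%. With TMM scaling these counts were 11 and 1, beside 31.8% and 33.5% of all genes. For most of the 6 members that stood higher at 84 h, the direction thus rested on the scaling. Some of these differences lay within counting error: the counting interval held 1 in a salt for 2 of the 13 (AG06730.1 and AG07382.1) and 2 of the 6 (AG01433.1 and AG02247.1). AG04958.1, AG04698.1 and AG07141.1 were among the other 11. Of the 53 other abundant genes, 32 were lower at 84 h in both salts.

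When the 3 libraries in 3 M or 4 M were set against the 3 in 0 M or 1 M, at either time, AG02247.1, AG03442.1 and AG07141.1 were higher in each high-salt library than in any low-salt one. These 3 of 24 (12.5%) stood beside 9.31% of 6745 genes. AG06534.1 was lower in each, 1 of 24 (4.17%) beside 9.90%. The mean CPM over the high-salt libraries was 1.65-fold that of the low-salt libraries for AG07141.1, 1.54-fold for AG02247.1 and 1.49-fold for AG03442.1. These groups mix the times, and their libraries are no replicates. Without the 3 M library at 84 h, 11 members (45.8%) were higher and 2 (8.33%) lower in the remaining libraries in 3 M or 4 M, beside 23.6% and 29.2% of 6694 genes.

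As a group the members were not flat. The geometric mean of their CPM, relative to its mean over the libraries, was 0.991 and 1.14 at 36 h, and 0.911, 0.935, 0.984 and 1.06 at 84 h. At 84 h it thus stood higher in more salt. TMM scaling widened the range, with 0.862 in 0 M at 84 h and 1.26 in 3 M at 36 h, and took 3 M at 84 h (0.936) below 1 M (0.951). The 53 other abundant genes had 1.46 in 3 M at 36 h and 1.248 in 4 M at 84 h by total counts, and 0.794 to 0.924 elsewhere. The TMM factors were 0.903 for 3 M at 36 h and 0.983 to 1.06 for the other libraries. The part that the scaling, the mix of transcripts and the cultures each had in these values was not tested.

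**Figure D5:**
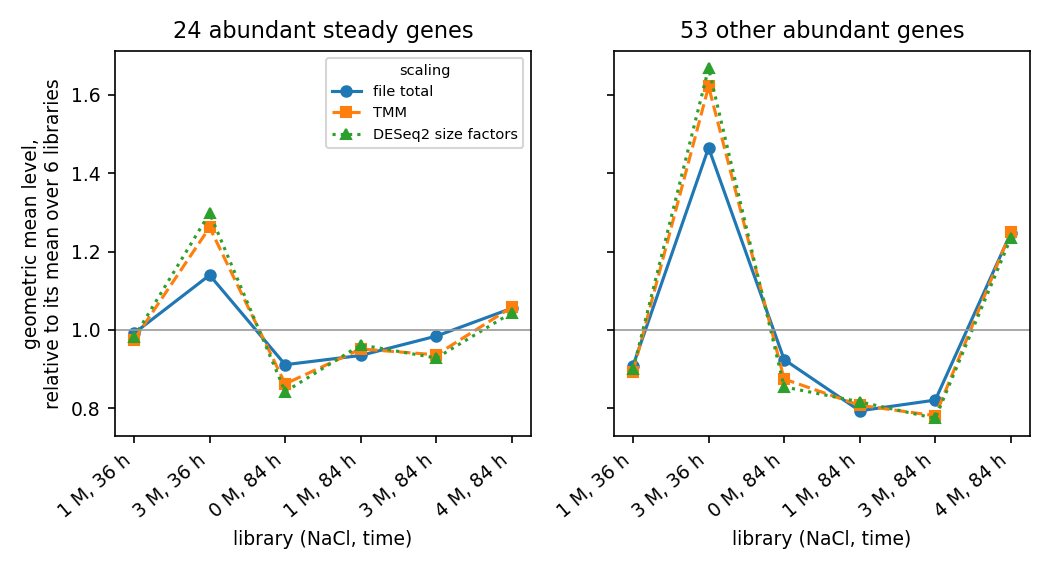
The y axis is the geometric mean level of a gene group in each library relative to its mean over the 6 libraries, for the 24 abundant steady genes (left) and the 53 other abundant genes (right). Lines join libraries only to guide the eye and show scaling by file total, by TMM and by DESeq2 size factors. Both groups peak in 3 M at 36 h, at 1.14 and 1.46 by file total, and higher under TMM, at 1.26 and 1.62.

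Membership itself depended on the scaling. With TMM-scaled CPM the same rule gave 20 genes, 19 of them among the 24. AG02247.1, AG03442.1, AG04698.1, AG05703.1 and AG07141.1 then had ratios of 2.08, 2.24, 2.15, 2.01 and 2.29. With DESeq2 size factors it gave 16 genes, 15 of them among the 24. Without the 3 M library at 36 h the rule gave 38 genes, the most of any library left out.

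A measure that needs no library scaling is the SD over the libraries of the log2 ratio between a pair of genes, averaged over all partners of a gene. Within the 24 it ran from 0.262 for AG06730.1 to 0.476 for AG00734.1, with a median of 0.346. AG04194.1 (0.266), AG07382.1 (0.270) and AG06527.1 (0.301) followed AG06730.1. Of the 4 members steadiest by the CPM ratio, 3 were among the lowest 4 here. AG07281.1, the steadiest by the ratio, was sixth at 0.315, and AG01547.1, which runs against most members, stood at 0.410.

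The members were spread over the ID numbering, from AG00151.1 to AG07382.1, and no 2 had consecutive numbers. AG05592.1 is the only member whose next ID was also abundant in all 6 libraries. It stood at 1397 and 1594 CPM at 36 h and at 2243, 1672, 1986 and 2439 CPM at 84 h, a ratio of 1.746, with both libraries at 36 h under all 4 at 84 h. AG05593.1, which is no member, stood at 1479 and 2783 CPM at 36 h and at 1282, 1214, 1376 and 3052 CPM at 84 h, a ratio of 2.51. Both IDs were highest in 4 M at 84 h. Next highest was 3 M at 36 h for AG05593.1 and 0 M at 84 h for AG05592.1. Whether neighbouring numbers are neighbouring genes is not given in the sources used here, and reads of near-identical or overlapping genes could not be told apart.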

How the data were processed

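Mycelium was collected on filters and frozen, RNA was extracted with TRIzol and cleaned on columns, and libraries followed standard Illumina methods, per the labels' protocols. What the authors deposited is a whole-number count of reads per gene in each library, with no scaling. The submitters' processing notes name TopHat2 2.0.8b as well as HTSeq 0.5.4p2. For the genome build, annotation, strand setting and filters, the record is: not given in the sources used here. Genes absent from a library's file were set to 0.

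CPM is the count over the file total. Comparisons used log2 values with a prior count of 2 and genes at 10 CPM or more in either library. TMM factors came from edgeR 4.0.16 and size factors from DESeq2 1.42.0 (R 4.3.3), and exact (Clopper-Pearson) 95% intervals from SciPy 1.17.1. Intervals cover counting error only, since no spread between cultures is known. Without molecular identifiers some reads may be PCR copies, so the intervals may be too narrow even for counting error. The 1.5-fold count was checked on simulated counts with known folds. These counts carried counting error only, without spread between cultures, and no simulated fold lay close to 1.5. The check therefore does not bear on members near that limit. Each condition has 1 library, so no statistical test between conditions was run. The members, lists and size rule were chosen with earlier results of these data known. All members are named. Genes outside the set are named only if they lie next to a threshold of the rule, have the largest ratios among abundant genes or follow a member in the numbering, the last chosen after values were seen. Alternatives were other scalings, CPM limits, ratios, prior counts and each library left out. Gene lists for ribosomal proteins, elongation factors, histones, glycolysis, cytoskeleton, conidiation and sexual development gave no result, because no ID has a name.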

Additional observations from a re-analysis of the deposited data

Results flagged for a closer look

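Several members differed with time in opposite directions in 1 M and in 3 M NaCl, with both counting intervals on opposite sides of 1. With 1 library per condition these differences were not tested. As ratios of 84 h over 36 h, AG01547.1 had 0.857 in 1 M and 1.29 in 3 M, AG05573.1 had 0.807 and 1.18, and AG07281.1 had 0.8999 and 1.04. In the other direction, AG02820.1 had 1.33 in 1 M and 0.846 in 3 M, and AG06534.1 had 1.35 and 0.954.

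The ratio of 3 M over 1 M also lay on opposite sides of 1 at 36 h and at 84 h for some members, again untested. Those above 1 at 36 h and below 1 at 84 h were AG04698.1 (1.46 and 0.807), AG02820.1 (1.36 and 0.864), AG06730.1 (1.29 and 0.955), AG07382.1 (1.29 and 0.961), AG00151.1 (1.13 and 0.833), AG00734.1 (1.12 and 0.908) and AG06527.1 (1.04 and 0.931). Those below 1 at 36 h and above 1 at 84 h were AG01547.1 (0.722 and 1.085), AG05573.1 (0.905 and 1.32), AG07281.1 (0.925 and 1.07) and AG04958.1 (0.930 and 1.39). With TMM and DESeq2 scaling, the ratios lay on opposite sides of 1 for 4 and 3 of the 5 members that differed with time, and for 8 and 8 of the 11 that differed with salt. Under both scalings, AG07281.1 no longer did so for time, nor AG04958.1 and AG05573.1 for salt. AG07281.1 with TMM for salt, AG01547.1 with DESeq2 for salt and AG05573.1 with DESeq2 for time also did not.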

How the results depend on the processing

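The number of abundant steady genes followed the limits of the rule. It was 85 with a lowest CPM of 400, 12 with 1600, 2040 with no CPM minimum, 8 with a ratio below 1.5 and 65 with a ratio below 3, and 26 to 38 with a library left out. With TMM scaling it was 20 and with DESeq2 size factors 16. A measure that needs no scaling, added after seeing the data, had 8 of the 24 among its 24 lowest of the 77 abundant genes. The members make up 31.2% of those 77, so this overlap is near their share and is not read as a result about them.

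The following counts of members at least 1.5-fold apart moved by over 1.5 times under both scalings. The shares of all genes with the same scaling are given in brackets. Members higher in 1 M than 0 M at 84 h went from 2 to 4 with TMM (21.1%) and 5 with DESeq2 (22.9%). Those lower in the same comparison went from 1 to 0 (23.9%) and 0 (21.9%). Members higher in 3 M than 1 M at 36 h went from 2 to 7 (25.8%) and 7 (27.0%). Those lower at 84 h than 36 h in 3 M went from 3 to 11 (26.5%) and 11 (28.8%). At a smaller size rule, a log2 difference of 0.32, the members higher and lower were 5 and 5 in 1 M over 0 M (27.0% and 40.2% of all genes), 10 and 4 in 3 M over 0 M (29.1% and 31.9%), 9 and 3 in 4 M over 0 M (34.1% and 36.1%), 10 and 1 in 3 M over 1 M at 36 h (29.3% and 41.3%), 2 and 3 for time in 1 M (30.7% and 33.8%) and 1 and 11 for time in 3 M (46.0% and 28.0%). Members higher at 84 h in both salts went from 6 to 1 under both scalings (33.5% of all genes with TMM and 32.5% with DESeq2). Those lower at each salt step went from 1 to 2 with DESeq2 (5.05%). Without the 3 M library at 84 h, added after seeing the data, 11 members were higher and 2 lower in each library in 3 M or 4 M, beside 23.6% and 29.2% of all genes. Of the 4 steadiest members, 2 remained among the lowest 4 under either scaling.

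The median log2 fold change of the members turned positive in 1 M over 0 M, at 0.100 with TMM and 0.150 with DESeq2. With TMM and DESeq2 it was 0.302 and 0.317 in 4 M over 0 M, 0.359 and 0.391 in 3 M over 1 M at 36 h, -0.0252 and -0.0186 for time in 1 M and -0.464 and -0.517 for time in 3 M. In 3 M over 0 M it was 0.154 with DESeq2. Without AG06730.1 the members' share of counts was 5.16% (1 M) and 6.02% (3 M) at 36 h, and 4.67%, 4.77%, 5.17% and 5.51% in 0 M, 1 M, 3 M and 4 M at 84 h. A scaling adds the same log2 amount to each member in a comparison, so the members' medians shift by construction. What the scaling factors themselves reflect was not tested. Of the counts over all genes, 4 of 48 alternatives moved by over 1.5 times, all 4 with no CPM minimum.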

Other observations

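Among all 77 genes at 800 CPM or more in every library, the 24 with the lowest mean SD of log2 ratios to the others included 8 of the abundant steady genes. This is near the share of the abundant steady genes among the 77, 31.2%. The other 16 were genes with a CPM ratio of 2.24 to 2.65, and all 16 were highest in 3 M at 36 h. Measured against the abundant genes as a whole, the members had a median of 0.511 and the 53 others 0.504. This measure is low for a gene that moves together with most of the others, so a low value need not mean a steady level. Of the 53 others, 35 were highest in 3 M at 36 h. The genes picked among the abundant ones therefore differed between the total-count scale and the ratios between genes.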
